A study of Danio rerio with 6 samples.

Results

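Small nucleolar ribonucleoproteins (snoRNPs) are particles of a small nucleolar RNA (snoRNA) and a few proteins, and the genes described here encode 10 of these proteins. They were chosen by name, as core proteins or assembly factors of the 2 classes of particle, from 34965 genes in the table of counts. The 4 genes of the box C/D class are *nop56*, *nop58*, *fbl* and *nufip1*, and the 6 genes of the H/ACA class are *dkc1*, *nop10*, *nhp2*, *gar1*, *naf1* and *shq1*. Each symbol matched 1 Ensembl gene. The libraries came from dissected heads of zebrafish embryos of strain AB at 36 hours post-fertilization (hpf). There were 3 libraries of *prpf31*-/- mutants, homozygous for a deletion and insertion made with CRISPR/Cas9, and 3 libraries of siblings that the labels call wild type. The heads of 35 embryos of 1 genotype went into each library, and RNA with a poly(A) tail was selected. Prpf31 is a splicing factor of the U4/U6 particle, and mutations of its human gene cause retinitis pigmentosa. The comparison asks how loss of Prpf31 altered RNA levels in the embryonic head.

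In a box C/D particle the guide RNA is bound by Snu13, Nop56, Nop58 and fibrillarin, and fibrillarin adds methyl groups to the 2′ position of ribose at sites that pair with the guide. In an H/ACA particle the guide RNA is bound by dyskerin, Nop10, Nhp2 and Gar1, and dyskerin converts uridine to pseudouridine. Both kinds of particle modify ribosomal RNA and spliceosomal RNA, and some of them are needed to cut the ribosomal RNA precursor. In vertebrates the H/ACA proteins are also part of telomerase. Most vertebrate snoRNAs are made from introns of other genes. Prpf31 carries the Nop domain that Nop56 and Nop58 also have, and Snu13 is shared by the U4/U6 and the box C/D particle.

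The libraries had 65612727 to 66381302 counts in mutants and 58706617 to 65799306 in siblings. After low counts were removed, 24277 genes entered the quasi-likelihood test of edgeR, and all 10 snoRNP protein genes were among them. Levels below are CPM, counts scaled to the size of each library after TMM, a correction for library composition. A gene was called where its p, adjusted over all genes tested by the Benjamini-Hochberg method, was 0.05 or lower. Mutant 1 stood apart from the other libraries. Its TMM factor was 0.816, against 1.02 to 1.06 in the other 5, and 14.5% of its counts fell on its 10 most abundant genes, against 8.14% to 9.54% elsewhere. Its 11 head and neural marker genes (among them *elavl3*, *sox2* and *sox3*) summed to 443 CPM, against 916 and 825 CPM in mutants 2 and 3 and 1011 to 1109 CPM in siblings. Its 16 trunk and tail Hox genes summed to 342 CPM, against 116 and 147 CPM in mutants 2 and 3 and 161 to 178 CPM in siblings, and its 6 muscle genes to 62290 CPM, against 22240 to 27610 CPM elsewhere. No gene of these lists had 0 counts in all libraries. Results are therefore also given without mutant 1. In pooled heads, fewer cells of a type and less RNA per cell cannot be told apart. The targeted gene *prpf31* had 22.4, 24.5 and 27.3 CPM in mutants 1 to 3, and 38.7, 37.9 and 37.6 CPM in siblings 1 to 3.

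Of the 10 snoRNP protein genes, 2 were higher in mutants (*fbl* and *nhp2*), 1 was lower (*shq1*), and 7 were not called. Over all genes tested, 3.96% were called higher and 3.83% lower. The change of *shq1* was the only one of at least 2-fold. In 4 genes (*fbl*, *nop10*, *nhp2* and *gar1*) every mutant library was above every sibling library, which held for 14.9% of all genes tested. In *shq1* every mutant library was below every sibling library, which held for 17.4% of all genes tested. The groups overlapped in the other 5. The smallest p that an exact permutation test of 3 against 3 libraries allows is 0.1 (2-sided), and it was reached by these 5 genes whose groups did not overlap. The median log2 fold change was 0.18 over the box C/D genes and 0.14 over the H/ACA genes, and it was 0.02 over all genes tested.

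**Figure D1:**
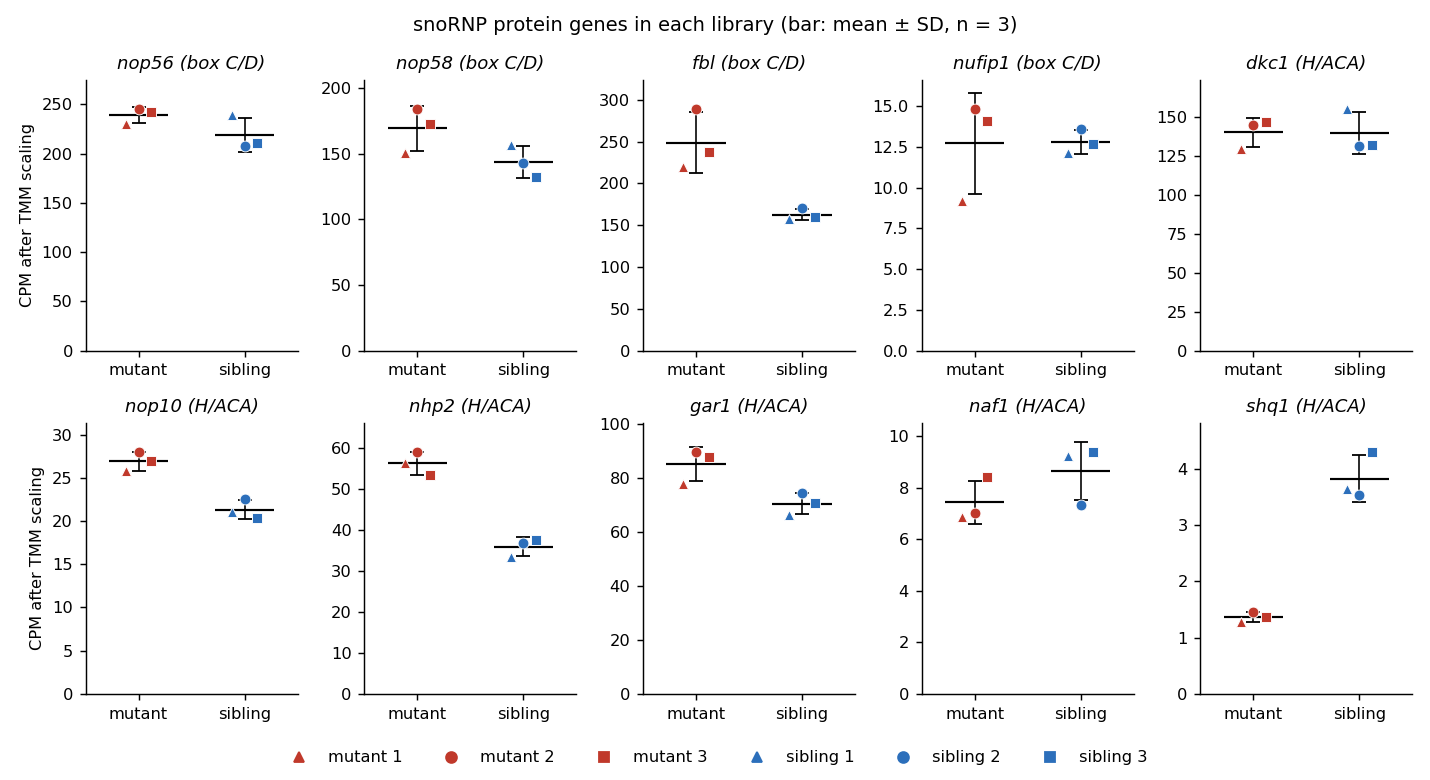
Level of each snoRNP protein gene in CPM after TMM scaling (vertical axes, from 0), with mutant libraries on the left and sibling libraries on the right of each panel, the mean as a line and the SD as a bar (n = 3). The groups do not overlap in *fbl*, *nop10*, *nhp2*, *gar1* and *shq1*, and mutant 1 is the lowest mutant in 9 of the 10 genes.

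Among the box C/D proteins, *fbl* (ENSDARG00000053912) encodes fibrillarin, the methyltransferase. Its level was 220, 289 and 237 CPM in mutants 1 to 3, and 158, 170 and 160 CPM in siblings 1 to 3. All mutant libraries lay above the siblings, and mutant 2 was the highest. The means were 249 ± 36.1 CPM in mutants and 163 ± 6.84 CPM in siblings (SD, n = 3 each), and the log2 fold change was 0.61 (standard error, SE, 0.13, adjusted p = 0.0358 in edgeR). Without mutant 1 the log2 fold change was 0.68 (edgeR adjusted p = 0.00476). The call was absent without mutant 2, mutant 3 or any 1 sibling (edgeR adjusted p between 0.0896 and 0.155). The log2 fold change then lay between 0.49 and 0.65. Over all genes tested, those called higher also fell in these fits, from 961 to between 247 and 498.

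Nop56 and Nop58 are the paired scaffold proteins of the box C/D particle, which hold fibrillarin on the guide RNA. The level of *nop56* (ENSDARG00000012820) was 230, 246 and 242 CPM in mutants, and 239, 208 and 211 CPM in siblings. Sibling 1 lay within the range of the mutants, and the groups overlapped. For *nop56* this gave a log2 fold change of 0.13 (SE 0.11, adjusted p = 0.538 in edgeR), and with limma on FPKM it was −0.0061. The level of *nop58* (ENSDARG00000104353) was 151, 184 and 173 CPM in mutants, and 156, 143 and 132 CPM in siblings. Mutants 2 and 3 were above all siblings, and mutant 1 was below sibling 1. For *nop58* the log2 fold change was 0.24 (SE 0.13, adjusted p = 0.3 in edgeR), or 0.30 without mutant 1 (edgeR adjusted p = 0.0594). Neither scaffold gene was called with all 6 libraries.

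Nufip1 is an assembly factor that links Snu13 to the R2TP chaperone complex and is not kept in the finished particle. The level of *nufip1* (ENSDARG00000101024) was 9.18, 14.8 and 14.1 CPM in mutants, and 12.1, 13.6 and 12.7 CPM in siblings. Mutant 1 was below all siblings, and mutants 2 and 3 were above all of them. Its log2 fold change was −0.0090 with all libraries (SE 0.19, adjusted p = 0.983 in edgeR) and 0.17 without mutant 1 (edgeR adjusted p = 0.304). Its sign also turned with RLE scaling and without sibling 2, at values near 0.

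In the H/ACA class, *dkc1* (ENSDARG00000016484) encodes dyskerin, the pseudouridine synthase, whose human gene is mutated in dyskeratosis congenita. Its level was 129, 144 and 146 CPM in mutants, and 155, 131 and 132 CPM in siblings. The groups overlapped, with both extremes in libraries of replicate number 1. Between groups, *dkc1* had a log2 fold change of 0.0067 (SE 0.12, adjusted p = 0.98 in edgeR), or −0.11 with library sizes alone, without TMM. The median of all genes tested was also −0.11 in that fit.

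The 3 small core proteins that sit on dyskerin were each above the siblings in all mutant libraries. Nhp2, a relative of Snu13 that contacts the guide RNA, was encoded by the gene with the highest log2 fold change of the 10. The level of *nhp2* (ENSDARG00000069422) was 56.4, 59.1 and 53.6 CPM in mutants, and 33.3, 36.9 and 37.6 CPM in siblings. The mutant libraries lay close together and well above the highest sibling. The means were 56.3 ± 2.76 CPM in mutants and 36.0 ± 2.30 CPM in siblings (SD, n = 3 each), with a log2 fold change of 0.65 (SE 0.11, adjusted p = 0.014 in edgeR). It was 0.64 without mutant 1 (edgeR adjusted p = 0.00508). The edgeR adjusted p of *nhp2* was 0.0502 without mutant 2 and between 0.0697 and 0.0793 without any 1 sibling, at log2 fold changes of 0.60 to 0.68.

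Nop10 is a very small protein that braces dyskerin and Nhp2. The level of *nop10* (ENSDARG00000104227) was 25.8, 28.0 and 26.9 CPM in mutants, and 21.0, 22.6 and 20.4 CPM in siblings. Its log2 fold change was 0.33 (SE 0.10), and the gene was not called with all libraries (edgeR adjusted p = 0.0922). Gar1 binds dyskerin in the mature particle. The level of *gar1* (ENSDARG00000076526) was 77.9, 89.7 and 87.8 CPM in mutants, and 66.5, 74.4 and 70.8 CPM in siblings. The lowest mutant, mutant 1, was only a little above the highest sibling. For *gar1* the log2 fold change was 0.27 (SE 0.11), and the gene was not called either (edgeR adjusted p = 0.182). Without mutant 1 both passed the threshold, *nop10* at 0.35 (edgeR adjusted p = 0.0355) and *gar1* at 0.32 (edgeR adjusted p = 0.035). With any other library left out neither was called. The edgeR adjusted p was then 0.195 to 0.299 for *nop10* and 0.325 to 0.392 for *gar1*.

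The remaining 2 H/ACA genes encode assembly factors. Shq1 is a chaperone that holds newly made dyskerin before it is loaded onto RNA. The gene *shq1* (ENSDARG00000058522) had 69, 99 and 94 counts in mutants, and 217, 231 and 301 counts in siblings. In CPM these were 1.28, 1.46 and 1.37 in mutants, and 3.63, 3.53 and 4.30 in siblings. Each mutant library was under every sibling library by a wide margin. The mutants differed little among themselves, by no more than the counting error at such counts. The means were 1.37 ± 0.0877 CPM in mutants and 3.82 ± 0.418 CPM in siblings (SD, n = 3 each), with a log2 fold change of −1.47 (SE 0.19, adjusted p = 0.00678 in edgeR), or 0.36 times the sibling level. It stayed called lower whichever 1 of the 6 libraries was left out, at log2 fold changes of −1.53 to −1.38 and edgeR adjusted p of 0.00415 to 0.0467.

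Naf1 occupies the place of Gar1 on dyskerin during assembly and is exchanged for it when the particle matures. The level of *naf1* (ENSDARG00000057929) was 6.87, 7.04 and 8.41 CPM in mutants, and 9.23, 7.34 and 9.40 CPM in siblings. Mutant 3 lay above sibling 2, so the groups overlapped. The log2 fold change was −0.22 (SE 0.16, adjusted p = 0.444 in edgeR), and without mutant 1 it was −0.17 (edgeR adjusted p = 0.505).

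Mutant 1 had the lowest level of the 3 mutants in 9 of the 10 genes, and mutant 3 in the tenth, *nhp2*. Without mutant 1, 4 genes were called higher (*fbl*, *nop10*, *nhp2* and *gar1*), against 8.22% of all genes then tested, and *shq1* was called lower, against 8.17%. Libraries with the same replicate number deviated together, and with that number in the fit as a block and mutant 1 left out, *nop56* (log2 fold change 0.21, edgeR adjusted p = 0.0277) and *nop58* (0.37, edgeR adjusted p = 0.00218) were called higher as well. That made 6 of 10 genes, against 14.7% of all genes tested in the same fit, and *dkc1*, *nufip1* and *naf1* remained uncalled. This fit was added after the data were seen. Sibling 1 then had no partner of its number, so the comparison rested on replicates 2 and 3 alone. Little was left to estimate the spread of each gene, so these p values lean on variance estimated over all genes. With library sizes alone, where the median of all genes tested was −0.11, *fbl* (edgeR adjusted p = 0.183) and *nhp2* (edgeR adjusted p = 0.104) were not called, and *shq1* was (edgeR adjusted p = 0.0148). The part of the tissue makeup of mutant 1 in the levels of these genes was not tested.

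**Figure D2:**
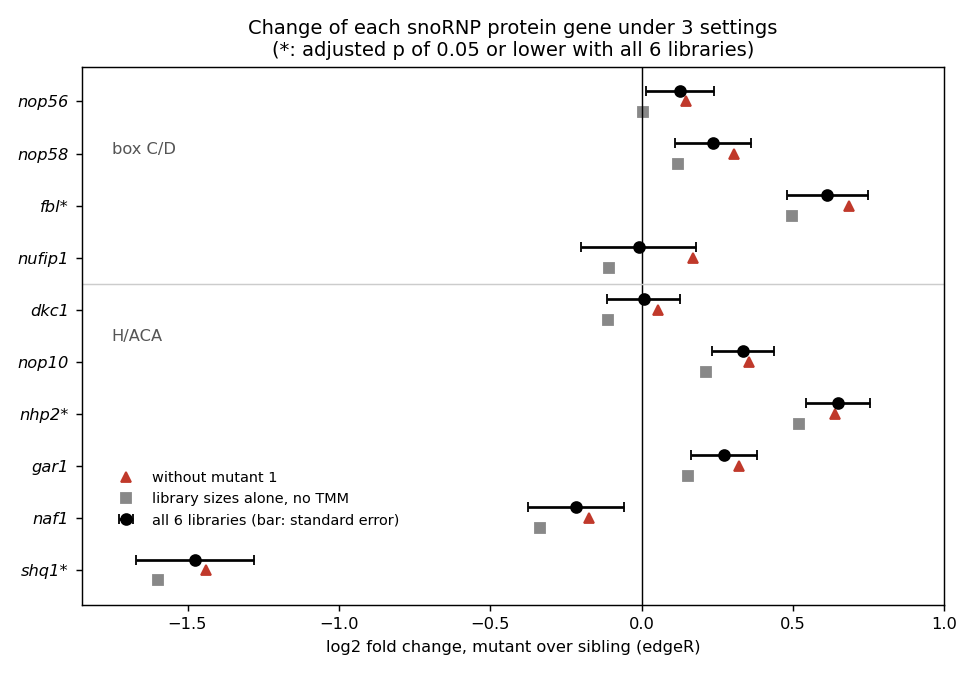
Log2 fold change, mutant over sibling, of each gene (rows) from edgeR with all 6 libraries (black, bar: standard error), without mutant 1 (red) and with library sizes alone (grey). *shq1* lies at −1.47 and the other 9 genes lie between −0.22 and 0.65 with all libraries, and the sign of *nufip1* and *dkc1* depends on the setting.

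Levels of different genes can be compared only per length, so the deposited FPKM (fragments divided by gene length and by the library total, without TMM) were used for that. In mutants the order of mean FPKM was *fbl* (254 ± 61.6, SD, n = 3), *nop56* (217 ± 34.6), *nop58* (109 ± 23.8), *dkc1* (98.1 ± 18.8), *nhp2* (71.2 ± 9.71), *nop10* (43.8 ± 7.14), *gar1* (35.0 ± 6.90), *nufip1* (8.05 ± 2.78), *naf1* (5.84 ± 1.29) and *shq1* (0.281 ± 0.0513). In siblings *nop56* (216 ± 11.5 FPKM) was first and *fbl* (180 ± 10.97 FPKM) was next. They were followed by *dkc1* (106 ± 7.43 FPKM) and *nop58* (100 ± 6.16 FPKM), whose order was thus the reverse of that in mutants, and the ranks below were the same in both groups. Neighbours within 1 SD of each other were *fbl* and *nop56*, *nop58* and *dkc1*, and *nufip1* and *naf1* in mutants, and *dkc1* and *nop58* in siblings. Core proteins were therefore above assembly factors in both groups, and the FPKM of *shq1* was the lowest. The deposited values imply a length of 4704 bases for *shq1*, the longest of the 10. The order of the genes rests on such implied lengths, which were not checked against transcripts. In FPKM *fbl* had 190 in mutant 1, within the sibling range of 170 to 191, and 312 and 261 in mutants 2 and 3, above it.

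Ratios of 2 genes within a library do not depend on how libraries are scaled. They were chosen after the values had been seen and are given without a test. How often ratios of other gene pairs keep the groups apart was not computed. The FPKM of *fbl* over that of *nop56* was 1.07, 1.32 and 1.1 in mutants, and 0.740, 0.922 and 0.853 in siblings. The ratio was thus higher in each mutant library than in each sibling library. On which side of 1 it lies depends on the implied gene lengths, 946 bases for *fbl* and 1063 bases for *nop56*. The ratio of *nop58* to *nop56*, the 2 scaffold genes, was 0.463, 0.532 and 0.506 in mutants, and 0.463, 0.486 and 0.445 in siblings, and the groups overlapped. They also overlapped in the ratio of *nufip1* to *nop58*. It was 0.05909, 0.07808 and 0.07915 in mutants, and 0.07522, 0.09249 and 0.09273 in siblings.

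Relative to *dkc1*, all 3 small core genes were higher in each mutant library than in each sibling library. For *nhp2* the ratio was 0.791, 0.743 and 0.665 in mutants, and 0.390, 0.511 and 0.518 in siblings. For *nop10* it averaged 0.449 ± 0.0184 in mutants and 0.359 ± 0.0420 in siblings, and for *gar1* 0.357 ± 0.00673 in mutants and 0.300 ± 0.0424 in siblings (SD, n = 3 each). The lowest mutant and the highest sibling were 0.429 and 0.401 for *nop10*, and 0.352 and 0.332 for *gar1*. The chaperone gene went the other way, and *shq1* over *dkc1* was 0.00291, 0.00296 and 0.00275 in mutants, and 0.00687, 0.00787 and 0.00955 in siblings. The ratio of *naf1* to *gar1*, the assembly factor and its replacement, was 0.168, 0.150 and 0.183 in mutants, and 0.265, 0.189 and 0.253 in siblings. It was lower in every mutant library, but mutant 3 (0.183) and sibling 2 (0.189) nearly touched. Neither gene was called alone.

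**Figure D3:**
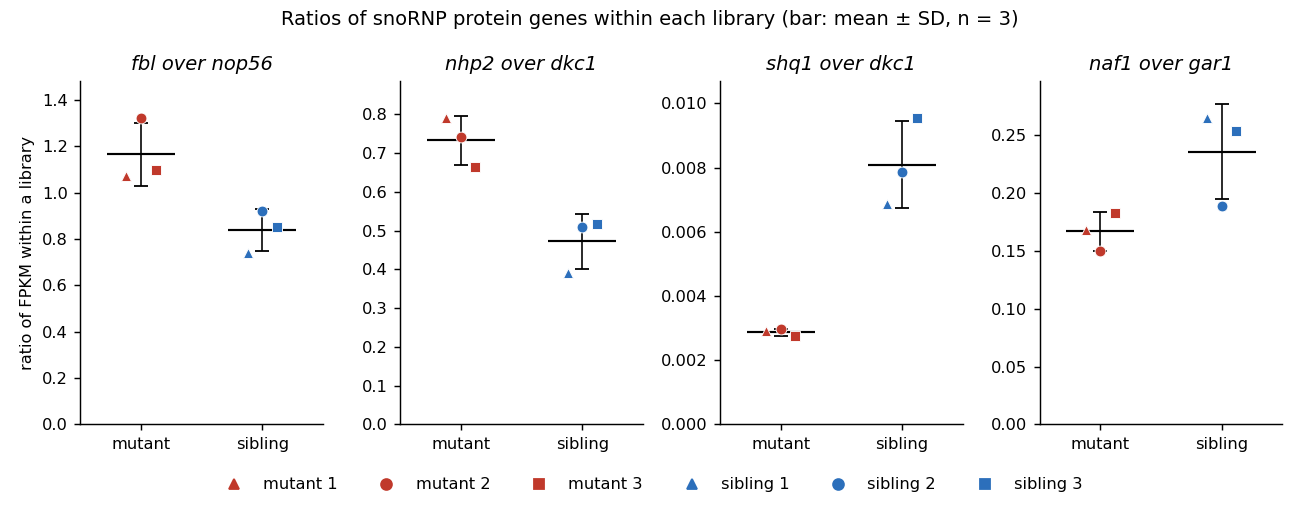
Ratio of the FPKM of 2 snoRNP protein genes in each library (vertical axes, from 0), mutants on the left and siblings on the right, with mean and SD (n = 3). In all 4 panels the groups do not overlap, with *fbl* over *nop56* and *nhp2* over *dkc1* higher in mutants and *shq1* over *dkc1* and *naf1* over *gar1* lower. The 4 ratios were picked after the values had been seen, and ratios with overlapping groups are not shown.

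For *shq1* and *nhp2*, the called members with the largest changes, the genes with the most similar profile were sought by Pearson's r of log2 CPM over the 6 libraries. The points form 2 groups, so a high r mostly requires a difference between them. Nearest to *shq1* were *igf2bp1* (r = 0.9997), *b9d1* (r = 0.9986) and *pank4* (r = 0.998). Of these, *b9d1* (log2 fold change −0.995, edgeR adjusted p = 0.00737) and *pank4* (−0.46, edgeR adjusted p = 0.0324) were called lower. Nearest to *nhp2* were *fth1a* (r = 0.9971), *srp19* (r = 0.9952), which encodes a protein of the signal recognition particle, and *glis2a* (r = 0.9945), and *srp19* was called higher (log2 fold change 0.53, edgeR adjusted p = 0.0261).

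The proteins that assemble box C/D particles or are shared with other particles were a further list of 9 genes, of which 2 were called higher and 1 lower (median log2 fold change 0.09, or −0.04 with library sizes alone). The median of all genes tested was 0.02, or −0.11 with library sizes alone. Zebrafish has 2 *snu13* genes, whose symbols carry no paralog letter in the table used, so they are told apart here by identifier. The *snu13* gene ENSDARG00000069878 had 102, 107 and 108 CPM in mutants, and 14.6, 18.2 and 17.8 CPM in siblings. Its log2 fold change was 2.65 (SE 0.13, adjusted p = 0.000145 in edgeR), the largest of the list. The other *snu13* gene, ENSDARG00000023299, had 57.0, 59.3 and 58.0 CPM in mutants, and 51.4, 57.2 and 55.5 CPM in siblings, and was not called (log2 fold change 0.09, SE 0.10, adjusted p = 0.639 in edgeR). Reads of near-identical copies may have been split between the 2 genes.

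The R2TP complex, a chaperone of snoRNP assembly, showed opposite changes of its parts. Its ATPase gene *ruvbl1* had 259, 335 and 341 CPM in mutants, and 81.9, 80.7 and 100 CPM in siblings (log2 fold change 1.83, SE 0.16, adjusted p = 0.00122 in edgeR). The partner ATPase *ruvbl2* was not called (0.33, edgeR adjusted p = 0.293). The gene of the adaptor Pih1d1 had 2.35, 2.61 and 2.63 CPM in mutants, and 4.89, 5.07 and 6.27 CPM in siblings, and *pih1d1* was lower (log2 fold change −1.096, SE 0.18, adjusted p = 0.0133 in edgeR). Without mutant 3, sibling 2 or sibling 3 *pih1d1* was no longer called, at an edgeR adjusted p of at most 0.0734. The other R2TP adaptor, *rpap3*, was not called (−0.32, edgeR adjusted p = 0.128), nor were *znhit3* (0.71, edgeR adjusted p = 0.0733), *znhit6* (0.01) and *nopchap1* (0.07). Without mutant 1 the counts were 4 higher and 2 lower: *ruvbl2* (0.49, edgeR adjusted p = 0.0098) and *znhit3* (0.79, edgeR adjusted p = 0.0317) were then called higher and *rpap3* (−0.37, edgeR adjusted p = 0.0423) lower.

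Of 6 partners of H/ACA particles in the Cajal body and in telomerase, 1 was higher and none was lower. It was *nolc1*, which encodes a nucleolar phosphoprotein that binds both classes of snoRNP. It had 96.4, 113 and 104 CPM in mutants, and 63.0, 61.3 and 55.5 CPM in siblings (log2 fold change 0.80, SE 0.11, adjusted p = 0.00854 in edgeR), and it was not called without sibling 2 or sibling 3 (edgeR adjusted p of at most 0.0657). With the replicate number as a block, and also without mutant 1, 2 genes were called lower: *wrap53*, whose protein guides H/ACA RNAs to the Cajal body (log2 fold change −0.52 and edgeR adjusted p = 0.0706 without the block, 0.0358 with it), and *tert*, the telomerase reverse transcriptase (−0.64, 0.142 without the block, 0.0276 with it). With library sizes alone the counts were 0 higher and 1 lower, since *nolc1* was not called (edgeR adjusted p = 0.0667) and *tert* was (edgeR adjusted p = 0.04996), and they were also 0 and 1 with limma on FPKM with a filter. The list median was 0.0065, and −0.10 with library sizes alone, where the median of all genes tested was −0.11.

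Where genes of the ribosome assembly machinery on which many snoRNPs act were called, they were higher in mutants. Over all genes tested, 3.96% were called higher and 3.83% lower, and at that share lists of this size would hold few lower calls. The small subunit (SSU) processome is the complex that forms with box C/D particles on the ribosomal RNA precursor. Of its 29 genes, 5 were called higher and none lower (*wdr43*, *nol10*, *utp4*, *mphosph10* and *fcf1*), and the median log2 fold change was 0.31, against 0.02 over all genes. The log2 fold change was positive in 23 of the 29 genes. In *utp20* (−0.30), *krr1* (−0.20) and *imp4* (−0.11) every mutant library was below every sibling library, without a call. The largest was *wdr43*, with 131, 156 and 153 CPM in mutants, and 94.7, 82.8 and 83.4 CPM in siblings (0.75, SE 0.12, adjusted p = 0.0132 in edgeR). Of 19 genes of large subunit assembly and other nucleolar proteins, 2 were called higher and none lower (*nip7* at 0.66 and *nifk* at 0.64, median 0.18). Of 12 genes of RNA polymerase I and its factors, 2 were called higher and none lower (*rrn3* at 0.79 and *taf1b* at 0.69, median 0.25). These counts varied with the libraries. Without mutant 1 the genes called higher were 15 of the SSU processome, 4 of the large subunit list and 4 of the RNA polymerase I list. The share over all genes then tested was 8.22%. Without mutant 2 they were 1, 2 and 0, without sibling 1 they were 1, 0 and 0, and without mutant 3, sibling 2 or sibling 3, with library sizes alone or with limma on log2(FPKM + 1), they were 0 in each list. In none of these fits was a gene of the 3 lists called lower.

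The relatives of Nop56, Nop58 and Nhp2 in other particles were a list of 6 genes. Besides the 2 *snu13* genes, *prpf31* was called lower (log2 fold change −0.62, edgeR adjusted p = 0.018), but not without mutant 2 or any 1 sibling (edgeR adjusted p of at most 0.0898). The ribosomal protein genes *rpl7a* (−0.02) and *rpl30* (0.16) and the selenocysteine factor *secisbp2* (−0.43) were not called. Of 13 genes of U4/U6 particle proteins tested, 8 were higher and 1 was lower, with a median log2 fold change of 1.39. Over all genes tested, the shares were 3.96% and 3.83%. This list overlaps those above: the lower gene is *prpf31* itself, and the higher ones include the *snu13* gene ENSDARG00000069878. The largest was *prpf3*, with 257, 332 and 336 CPM in mutants, and 46.7, 45.9 and 43.5 CPM in siblings (2.77, SE 0.14, adjusted p = 0.00018 in edgeR). All 10 snoRNP protein genes had log2 fold changes under this median.

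**Figure D4:**
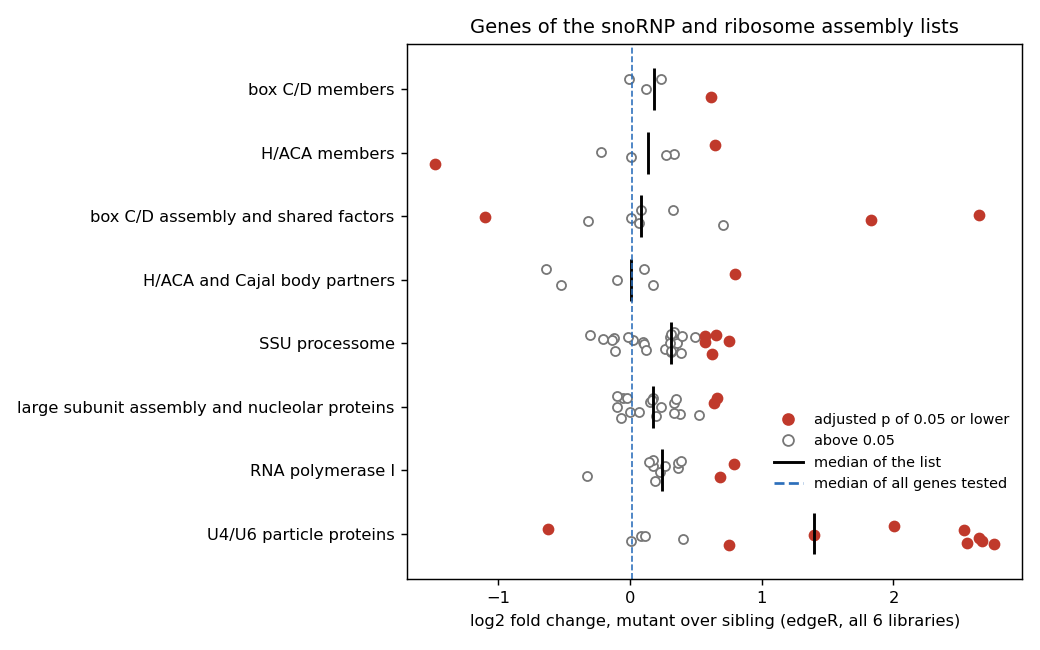
Log2 fold change, mutant over sibling, of every tested gene of each list (rows), with called genes in red, the other genes open, the list median as a black line and the median of all genes tested as a dashed line. Of the snoRNP protein genes, *fbl*, *nhp2* and *shq1* are the called ones, and the U4/U6 genes reach 2.77. Between the median of all genes (0.02) and *fbl* lie *nop10* (0.33), *gar1* (0.27), *nop58* (0.24) and *nop56* (0.13).

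Counts at the genes of the guide RNAs that these proteins bind were taken from the same libraries. Rows with a *snord*, *snora* or *scarna* symbol numbered 78, a list made after the values had been seen, and 55 of them had at least 1 count. Mature snoRNAs have no poly(A) tail, the gene models of the 55 were 65 to 221 bases long, and the counting was not stated to use strand, so counts from a mature snoRNA and from the host transcript around it cannot be told apart. Summed over the 78 genes, the mutants had 1218, 2013 and 2235 counts, and the siblings had 300, 273 and 364 counts. In CPM the sums were 22.7, 29.7 and 32.7 in mutants, and 5.02, 4.17 and 5.199 in siblings. The lowest mutant sum was well above the highest sibling sum, and the ratio of the means was 5.91, or 5.46 to 6.50 with 1 library left out. Together the snoRNA genes took 0.00276% of the counts in mutants and 0.000503% in siblings.

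The genes of both classes of guide RNA had higher summed counts in each mutant library than in each sibling library. The 54 *snord* genes, of box C/D snoRNAs, summed to 9.92 ± 2.56 CPM in mutants and 1.27 ± 0.0918 CPM in siblings (SD, n = 3 each), a ratio of 7.79. The 22 *snora* genes, of H/ACA snoRNAs, summed to 18.0 ± 2.47 CPM in mutants and 3.16 ± 0.337 CPM in siblings, a ratio of 5.69. The 2 *scarna* genes, of guide RNAs of the Cajal body, had 12, 42 and 36 counts in mutants, and 30, 13 and 27 counts in siblings, and the groups overlapped. In 45 of the 78 genes every mutant library had more raw counts than every sibling library, and in none was it the other way round. Among the 332 miRNA genes this held for 2, and the reverse for 10. Over all genes tested the shares were 14.9% and 17.4%. Those shares are of CPM, and only 30 of the 78 genes were among the genes tested. The most abundant was the *snora73* gene ENSDARG00000082242, with 370, 564 and 569 counts in mutants, and 106, 76 and 122 counts in siblings (log2 fold change 2.33, SE 0.22, adjusted p = 0.00147 in edgeR). The *snora62* gene ENSDARG00000081943 had 35, 55 and 68 counts in mutants and 0 in each sibling library. Copies of 1 snoRNA family may share reads.

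Other small RNA genes had ratios nearer to 1. The 332 miRNA genes summed to 8.57 ± 0.813 CPM in mutants and 8.96 ± 0.453 CPM in siblings, a ratio of 0.957. The 131 of them with a count were similar in length to the snoRNA genes (72 to 151 bases). The 535 spliceosomal snRNA genes summed to 2.00 ± 0.189 CPM in mutants and 1.23 ± 0.303 CPM in siblings, a ratio of 1.63. These groups did not overlap either, with 1.84 CPM in the lowest mutant and 1.57 CPM in the highest sibling. Of these genes, 72 had more summed counts in mutants and 29 in siblings. The 29 genes of U3, the box C/D snoRNA of the SSU processome, had no count in any library. For counted fragments this allows up to 0.0429 to 0.0558 CPM per library (3 counts, counting error only). Fragments that fit several of the 29 copies may have gone uncounted, and mature snoRNAs have no poly(A) tail. The value is thus no limit on the level of U3 itself.

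**Figure D5:**
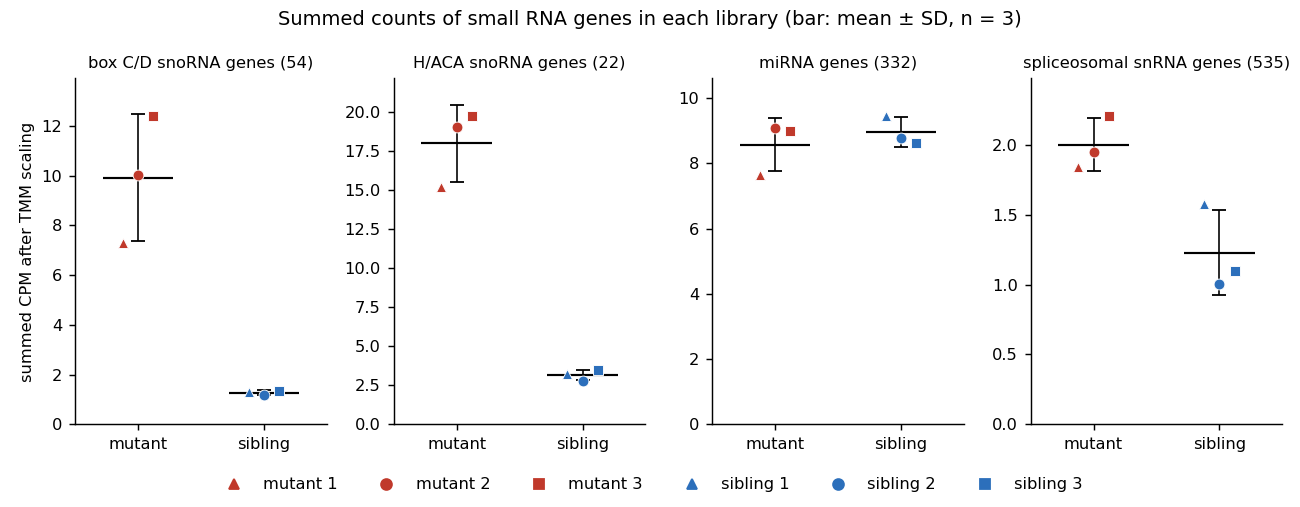
Summed CPM after TMM scaling of 4 classes of small RNA genes in each library (vertical axes, from 0), mutants on the left and siblings on the right, with mean and SD (n = 3). Box C/D and H/ACA snoRNA genes lie far above the siblings in each mutant library. The spliceosomal snRNA sums are also higher in each mutant library, by less, and the miRNA sums overlap.

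Cycling cells need many ribosomes, so markers of such cells are given beside these results. Of 9 cycling cell markers, none was called higher and 2 were called lower, *mcm5* (log2 fold change −0.47, edgeR adjusted p = 0.0382) and *top2a* (−0.78, edgeR adjusted p = 0.0244). Over all genes tested, 3.96% were called higher and 3.83% lower. The 9 cycling cell markers summed to 1867, 2645 and 2645 CPM in mutants, and 2704, 2858 and 2895 CPM in siblings. The 7 red blood cell genes (376 to 887 CPM in mutants, 606 to 1070 CPM in siblings) had no call, and of the 8 lens genes (150 to 699 CPM in mutants, 915 to 1119 CPM in siblings) 1 was called lower, *cryaa*. Without mutant 1 the genes called lower were 4 of the cycling, 4 of the head and neural, 5 of the lens, 4 of the trunk and tail and 2 of the muscle markers, with 1 cycling and 1 head and neural gene called higher. The shares over all genes then tested were 8.17% lower and 8.22% higher. With the replicate block and all libraries the genes called lower were 4, 2, 4, 0 and 0 in the same lists. Of the red blood cell genes 2 were then called lower and 1 higher. That fit called 1605 of all 24277 genes tested lower and 1479 higher. The part of these cell types in the results on snoRNP genes was not tested.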

How the data were processed

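Libraries were grouped by genotype from the sample labels. Per the labels, reads were aligned by the authors with HISAT2 2.0.4 to GRCz11, and the deposited counts are whole fragments per gene without normalization. HTSeq 0.9.1 is named in the submitters' processing notes, and the methods also name featureCounts. The annotation and use of strand are not given in the sources used here. The authors made the deposited FPKM from the same counts and one length per gene (25681 genes, largest relative deviation 3.17e-07).

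edgeR 4.0.16 (R 4.3.3) was run on the counts with filterByExpr, TMM factors and the quasi-likelihood test without covariates, and p values were adjusted by Benjamini-Hochberg. Alternatives were each library left out, the replicate block, DESeq2 1.42.0, RLE scaling, no TMM (library sizes alone), a minimum of 10 counts in every library, no filter, and limma 3.58.1 on FPKM with a pseudocount of 1 or 0.1 (0.5 FPKM or more in 3 libraries) or of 1 on all genes. The replicate block without mutant 1 was added after seeing the data. The biological coefficient of variation was 0.244, so at high counts the spread between pools set the precision. Nothing beyond separate pools says how the embryos were raised, so p values measure the spread between pools. Python 3.11.15, pandas 2.3.3 and scipy 1.17.1 served for the rest.

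The groups share replicate numbers. Over 24277 genes, deviations from the group means correlated at 0.342, 0.385 and 0.448 between libraries of the same number and at −0.234 to −0.127 between the others. The deviations of a group sum to 0, so positive values at the same number force negative ones elsewhere, which add nothing. On the positive values the numbers were taken to pair the libraries. The labels give no source for the pairing.

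Symbols came from a table of gene names (29201 of 32520 Ensembl rows). Of 142 listed symbols, 137 were matched, 19 without the paralog letter. One gene of the planned head marker list is not reported here. All 10 members were named, with *prpf31*, both *snu13* genes and the called gene with the largest change in each direction of each list. Other named genes were chosen after their values were seen. The members and lists were chosen with earlier results of these data known. The fits were tested on simulated counts.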

Additional observations from a re-analysis of the deposited data

How the results depend on the processing

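*shq1* was called lower under all settings run. With limma on filtered FPKM it passed the floor of 0.5 FPKM through the siblings alone, since mutants had 0.223 to 0.317 FPKM. Those 2 settings are therefore tied to the filter. On log2(FPKM + 1) its log2 fold change was −0.53, with the filter and without it. The higher call of *fbl* and *nhp2* was absent with limma on FPKM and with library sizes alone, where 0 of the 10 genes were called higher, and with 1 library left out 0 to 4 were. With the replicate block and without mutant 1, where sibling 1 had no partner, 6 were called. The replicate block with all libraries changed no call among the 10 genes (*fbl* 0.60, edgeR adjusted p = 0.0222). The box C/D median was 0.064 with library sizes alone, 0.046 at each of the 3 FPKM settings and 0.14 to 0.25 with 1 library left out. The H/ACA median was 0.021, 0.0030 (0.0039 at a pseudocount of 0.1) and 0.11 to 0.19 in the same fits. With library sizes alone the median of all genes tested was itself −0.11, against 0.02 in the main fit. The FPKM settings have no TMM correction either, and the median of all genes in them is not given here. Signs turned only in genes that were not called: *nop56* (−0.0061 with limma on FPKM), *nufip1* (0.00081 with RLE scaling, −0.14 to 0.17 with 1 library left out, 0.13 with the replicate block without mutant 1) and *dkc1* (−0.11 with library sizes alone, −0.0032 without a filter, −0.13 with limma on FPKM, −0.037 to 0.095 with 1 library left out). The cause was not tested.

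Over all genes tested, 961 were called higher and 929 lower. The counts were 1768 and 1681 with DESeq2, 1479 and 1605 with the replicate block, 400 and 519 with library sizes alone, 438 and 724 with limma on log2(FPKM + 1), 418 and 618 on log2(FPKM + 0.1), 337 and 337 without a filter on FPKM, 3646 and 3707 with the replicate block without mutant 1, and 247 to 2040 and 110 to 2029 with 1 library left out. The called snoRNA genes numbered 24 of 30 tested in the main fit, 37 with DESeq2, and 3 where at least 10 counts were required in every library. With 1 library left out they numbered 7 to 32, with 7 or 8 without mutant 3 or any 1 sibling and 15 without mutant 2. The filter of the main fit asks for enough counts in 3 libraries, so a snoRNA gene could enter through the mutants alone. The share called among those tested was therefore tied to the filter and is no result about the set. Low counts limited the snoRNA genes, of which 48 of 78 did not pass the filter. The 10 protein genes had 69 counts or more in each library. For *shq1*, the lowest of them, the counting error in mutants was not small beside the spread between the mutant pools.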

Other observations

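The snoRNA host gene *gas5* (ENSDARG00000092337), whose introns hold box C/D snoRNAs in mammals, had 1262, 2050 and 1739 counts in mutants, and 1060, 1350 and 1151 counts in siblings. In CPM it had 23.5, 30.2 and 25.4 in mutants, and 17.8, 20.6 and 16.4 in siblings. Every mutant library was above every sibling library. The log2 fold change was 0.53 (standard error 0.14), which was not called with all libraries unpaired (edgeR adjusted p = 0.0644) and was called with the replicate block (0.53, edgeR adjusted p = 0.0259) and without mutant 1 (edgeR adjusted p = 0.0205). The gene was chosen after its values were seen. Its fold change was 1.44. Which snoRNA genes lie in it was not looked up, so its level cannot be set against their counts.

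The 5 genes of *snord118*, the U8 snoRNA that acts in large subunit rRNA maturation, had 3 counts in mutant 3 and none in the other 5 libraries. Of the 78 snoRNA genes, 52 had more summed counts in mutants and 3 in siblings, and 6 with counts in mutants had 0 counts in every sibling library. Among the 332 miRNA genes these numbers were 59, 63 and 21.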
